A study of Mus musculus with 6 samples.

Results

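The genes described here encode the machinery of the hormone granules of neuroendocrine cells. They are 10 genes chosen by name: the granins Chga, Chgb, Scg2 and Scg3, the processing proteins Scg5 and Cpe, the peptide hormone Pyy, the amine-forming enzyme Ddc, and the transcription factors Neurod1 and Insm1. They were taken as every probe set annotated to exactly 1 of these symbols, which gave 14 probe sets of the 45037 tested and 10 genes of 18193. The genes were picked because earlier results of the same arrays had shown some of them higher with SF1, so their differences between the groups are a description. Where a threshold is counted for them, the count describes the fit and is not a test of them.

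The arrays measured RNA of uterine horns of C57BL6J mice, with the cervix discarded, on 1-colour Affymetrix arrays for the mouse genome. The SF1 group (3 arrays) carried Pgrcre/+ together with SF1LsL/+, a transgene for the nuclear receptor SF1 (gene Nr5a1) that Cre switches on. The control group (3 arrays) carried SF1LsL/+ without Cre, so every mouse of both groups carried the transgene and only the SF1 group had a Pgr allele changed by Cre. Each array held a pool of 2 uteri, taken 2 weeks after surgery; the sources used here give neither the kind of surgery nor the ages. Cre under the control of Pgr acts in the Pgr-expressing cells of the uterus, which include epithelium, stroma and muscle, and in other Pgr-expressing tissues.

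Neuroendocrine cells store peptide hormones and amines in dense-core granules and release them when calcium rises. Granins are acidic proteins that condense in the Golgi and help to form these granules. Prohormone convertases and carboxypeptidase E then cut the prohormones to active peptides inside the granule. In the gut, Neurod1 and Insm1 act in the cells that become hormone-producing enteroendocrine cells, and Pyy marks a class of such cells in the distal gut.

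The granin genes are shown first by the sequence before their start, because the promoters of Chga, Chgb and Scg2 each hold a cyclic AMP response element, the site of the activator CREB, near the start. Promoters from 250 bases before to 50 bases after each start came from RefSeq (GRCm38.p6), where 8 of the 10 genes had 10 promoters, and Insm1 and Cpe had no entry. The letters below run 5′ to 3′ on the gene's own strand, which is the plus strand for Chga and Chgb and the minus strand for Scg2 and Ddc. Capitals mark the response element in Chga, Chgb and Scg2, a second element in Scg2 that matches an arm of the RE1 site of the neural repressor REST, and the core of an SF1 site in Ddc.
Chga, chr12:102554691-102554990: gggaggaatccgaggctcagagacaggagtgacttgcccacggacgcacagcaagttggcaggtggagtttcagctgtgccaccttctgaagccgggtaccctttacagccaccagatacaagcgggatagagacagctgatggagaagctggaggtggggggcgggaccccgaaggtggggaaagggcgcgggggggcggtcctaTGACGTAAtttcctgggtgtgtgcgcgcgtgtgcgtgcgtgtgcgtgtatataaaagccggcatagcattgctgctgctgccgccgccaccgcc
Chgb, chr2:132781392-132781691: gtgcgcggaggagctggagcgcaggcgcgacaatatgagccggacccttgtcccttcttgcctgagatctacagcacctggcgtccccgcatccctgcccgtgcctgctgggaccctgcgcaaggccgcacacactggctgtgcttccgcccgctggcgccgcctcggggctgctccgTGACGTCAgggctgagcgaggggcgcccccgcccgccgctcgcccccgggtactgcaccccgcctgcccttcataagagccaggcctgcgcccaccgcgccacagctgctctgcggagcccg
Scg2, chr1:79439977-79440276: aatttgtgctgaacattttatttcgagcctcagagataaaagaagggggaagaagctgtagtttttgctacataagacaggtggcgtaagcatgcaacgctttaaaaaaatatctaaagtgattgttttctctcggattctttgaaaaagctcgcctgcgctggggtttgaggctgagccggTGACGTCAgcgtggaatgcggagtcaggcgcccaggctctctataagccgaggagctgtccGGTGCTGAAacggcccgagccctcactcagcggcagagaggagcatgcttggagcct
Ddc, chr11:11898095-11898394: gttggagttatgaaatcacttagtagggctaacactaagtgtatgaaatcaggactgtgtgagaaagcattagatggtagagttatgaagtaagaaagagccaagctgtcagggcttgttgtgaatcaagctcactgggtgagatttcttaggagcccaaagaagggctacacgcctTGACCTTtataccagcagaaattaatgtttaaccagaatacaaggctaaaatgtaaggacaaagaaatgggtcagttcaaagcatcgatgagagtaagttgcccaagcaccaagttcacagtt

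The full element TGACGTCA began 72 bases before the start in Chgb and 68 bases before it in Scg2, and 1.79% of all 32851 promoters held it on either strand. Chga carried TGACGTAA, which began 44 bases before the start. The looser form TGACGTNA, searched for after the Chga promoter had been read, stood in 3 of the 8 genes and in 2.93% of all promoters, and it includes every TGACGTCA. The RE1 arm TTCAGCACC lay on the opposite strand in Scg2, from 7 bases before the start, and 0.371% of all promoters held it. The SF1 core AAGGTCA was found in 1 of the 8 genes, in the upstream of the 2 Ddc promoters, on the opposite strand from 73 bases before the start, and in 4.72% of all promoters. Its longer form CAAGGTCA, which contains AAGGTCA, was in none of the 10 promoters and in 1.56% of all. The E-box CANNTG, a motif of basic helix-loop-helix factors such as Neurod1, was in 6 of the 8 genes and in 72.3% of all promoters. These matches describe letters in a short window and say nothing of binding.

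The arrays were alike in level, with median intensities between 149.9 and 159.6 in SF1 and between 159 and 162.2 in control. The ratio of 3′ to 5′ signal for beta-actin, a sign of RNA quality, was 2.12 to 2.34 in SF1 and 2.38 to 2.58 in control, and its part in the differences below was not tested. Of 10 uterine marker genes, among them Esr1, Myh11 and Hoxa10, 1 rose and 4 fell (limma). By the same rule 8.37% of all genes rose and 8.11% fell. The lowest group mean of these 10 genes was 431 intensity units. The brighter Nr5a1 probe set read 151.2 to 151.5 in SF1 and 138.8 to 171.5 in control, a log2 difference of 0.00 (limma adjusted p = 0.992). Whether that probe set lies within the transgene is unknown, so it is no check on which arrays expressed SF1. Pgr averaged 1893 ± 158 units in SF1 and 4797 ± 89.0 in control (SD, n = 3 each; log2 difference -1.34, limma adjusted p = 3.23e-05).

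Of the 10 genes, 9 read higher on every SF1 array than on any control array, and the same 9 passed an adjusted p under 0.05 in the limma fit over all probe sets. Over all genes, 16.2% read higher on every SF1 array and 8.37% passed that threshold with a rise. Of the 14 probe sets, 12 passed it, as did 5.88% of all probe sets. The genes were chosen from this contrast, so their count is no evidence beyond these shares. Their median log2 difference was 1.98, against -0.05 over all genes. In whole uterus, a change in the number of cells of a type and a change in RNA per cell cannot be told apart.

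**Figure D1:**
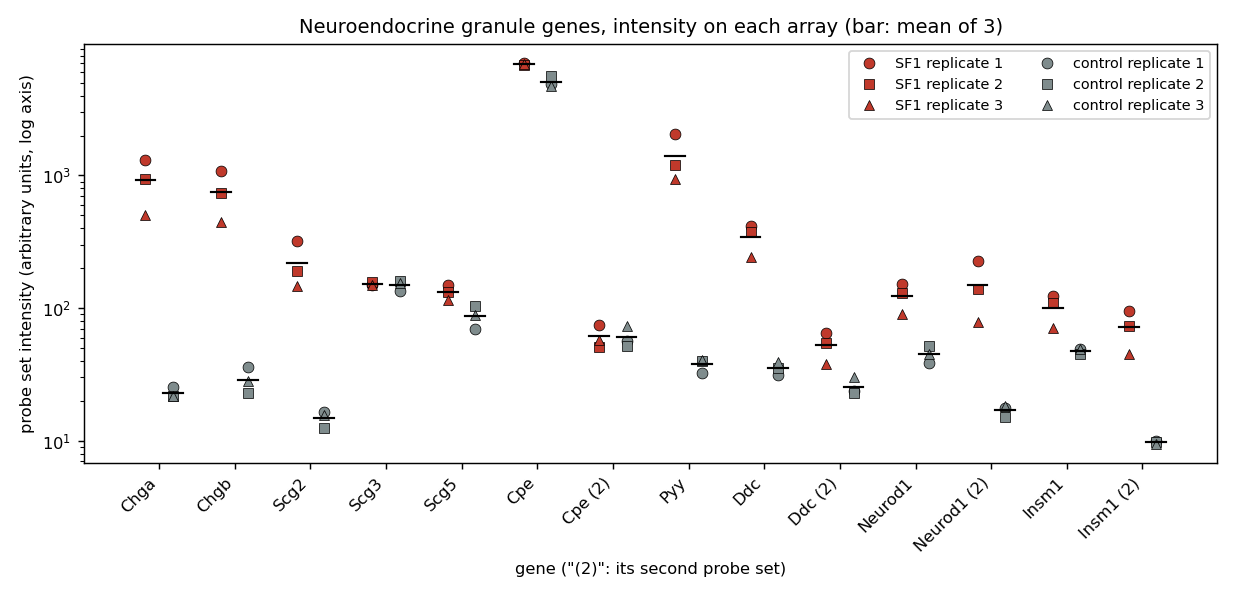
Intensity of each of the 14 probe sets on each array, on a log axis, with SF1 (red) left of control (grey), 1 point per array and a bar at the mean of 3. The SF1 points lie above all control points for 12 of the 14 probe sets, and those of Scg3 and of the second Cpe probe set overlap with control.

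Chga encodes chromogranin A, the general marker protein of dense-core granules. It read 1319, 934 and 507 intensity units in SF1 replicates 1, 2 and 3, against 25.4, 21.6 and 21.7 in control replicates 1, 2 and 3. All 3 SF1 arrays stood far above the control arrays, and the SF1 arrays themselves differed 2.60-fold. The means were 919.8 ± 406 in SF1 and 22.9 ± 2.15 in control (SD, n = 3 each), a 40.2-fold ratio and a difference of 4.49 ± 0.28 (SE) in log2(intensity + 16), the scale of all log2 values here.

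Chgb, the gene of chromogranin B, read 1073, 738 and 446 units in SF1 and 35.7, 23.1 and 28.0 in control, in the order of replicates 1, 2 and 3. As for Chga, the groups did not overlap and SF1 replicate 1 was the highest array. The log2 difference was 4.02 ± 0.27. Scg2, which encodes secretogranin II, the precursor of the peptide secretoneurin, read 322, 191 and 146 units in SF1 and 16.5, 12.4 and 15.5 in control. Its difference was 2.87 ± 0.23, again with all SF1 arrays above all control arrays.

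Scg3 did not follow the other granins. It encodes secretogranin III, which tethers chromogranin A to the granule membrane, and it read 148, 156 and 150.3 units in SF1 and 135, 159 and 155 in control. The groups overlapped, and the log2 difference was 0.02 with a 95% interval from -0.17 to 0.21. This gene has 1 probe set, so no second reading stands beside it.

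The processing genes showed small differences. Scg5 encodes 7B2, the chaperone of prohormone convertase 2, and read 150.3, 132 and 115 units in SF1 and 69.5, 103 and 89.2 in control, a log2 difference of 0.53 ± 0.14. The lowest SF1 array was above the highest control array, and Scg5 no longer passed the threshold without SF1 replicate 1, SF1 replicate 2, control replicate 1 or control replicate 3, with a pseudocount of 1 or with the replicate number as a block. Cpe, the gene of carboxypeptidase E, which trims basic residues from cut prohormones, read 7040, 6828 and 6977 units in SF1 and 4874, 5605 and 4744 in control. These SF1 arrays differed by no more than 1.03-fold, unlike those of Chga, Chgb and Scg2, and the log2 difference was 0.46 ± 0.09. The second Cpe probe set read 51.3 to 75.1 units in SF1 and 51.9 to 72.9 in control and did not differ (0.01 ± 0.14). With the mean of both probe sets the Cpe difference was 0.24 and did not pass the threshold.

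Pyy encodes peptide YY, a hormone that slows gut transit and lowers appetite. It read 2053, 1193 and 939 units in SF1 and 32.4, 40.1 and 41.0 in control. Every SF1 array was above every control array, with SF1 replicate 1 again the highest. The means were 1395 ± 584 in SF1 and 37.8 ± 4.72 in control (SD, n = 3 each), a 36.9-fold ratio and a log2 difference of 4.64 ± 0.24.

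Ddc encodes aromatic L-amino acid decarboxylase, which makes dopamine and serotonin from their amino acid precursors. Its brighter probe set read 413, 374 and 243 units in SF1 and 31.3, 35.5 and 39.4 in control, a log2 difference of 2.78 ± 0.17. Its other probe set read 65.4, 54.8 and 37.6 units in SF1 and 23.8, 22.8 and 30.2 in control, a difference of 0.71 ± 0.15. Both probe sets had no overlap between the groups and the same order of SF1 arrays, and their mean gave a difference of 1.74.

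Neurod1 encodes a basic helix-loop-helix activator of endocrine differentiation. Its brighter probe set read 151, 129.5 and 90.8 units in SF1 and 38.3, 51.4 and 45.4 in control, a difference of 1.18 ± 0.16. The other probe set read 228, 140.0 and 79.1 units in SF1 and 17.6, 15.1 and 18.4 in control, a difference of 2.22 ± 0.28. The 2 probe sets moved the same way but by different amounts. Insm1, a zinc finger factor of endocrine progenitors, read 123, 109 and 70.4 units in SF1 and 48.8, 45.2 and 49.3 in control on its brighter probe set (0.85 ± 0.16). On the other it read 95.6, 73.9 and 45.3 units in SF1 and 9.91, 9.72 and 9.53 in control (1.72 ± 0.19). Neither pair of groups overlapped.

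Most control readings lay at the dim end of the arrays. Of the 14 probe sets, 10 read below the array's lower quartile (67.8 to 71.5 units) on every control array, so fold ratios depend on how background was treated before deposit. With pseudocounts of 1 and 64 the log2 difference of Chga was 5.17 and 3.41, that of Pyy 5.10 and 3.77, and that of Scg2 3.73 and 1.80. With a pseudocount of 64 the differences of Neurod1 and Insm1 were 0.77 and 0.55. No detection calls were used here, so the control levels cannot be told from background.

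Within the SF1 group, most of the genes shared an order of arrays. Of the 9 genes that read above control, 8 were highest in SF1 replicate 1 and lowest in SF1 replicate 3, and 1, Cpe, was lowest in SF1 replicate 2. Over all 1523 genes that passed the threshold with a rise, 21.3% had that same order of arrays, as did 15.7% of all genes. Of the 374 genes with a called log2 rise of at least 1, 72 (19.3%) had it, whereas 158 were highest in SF1 replicate 3 and lowest in SF1 replicate 2.

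The spread was wide for the strongest genes. For the 6 genes with a log2 difference of at least 1, SF1 replicate 3 read between 0.385 and 0.599 of SF1 replicate 1, with a median of 0.456. The same ratio had a median of 1.01 over the 374 genes with a rise of at least 1 and of 1.00 over all genes. SF1 replicate 1 also had the lowest array median. The ratios of 3′ to 5′ signal in SF1 replicates 1, 2 and 3 followed the order of these genes. They were 2.34, 2.13 and 2.12 for beta-actin and 1.66, 1.49 and 1.47 for Gapdh. The part of RNA quality in the order of the genes was not tested. That order of the genes was found in 8 of the 9 after quantile normalization as well, and after centring each array on its median. The order was not tested, since a group holds 3 arrays.

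**Figure D2:**
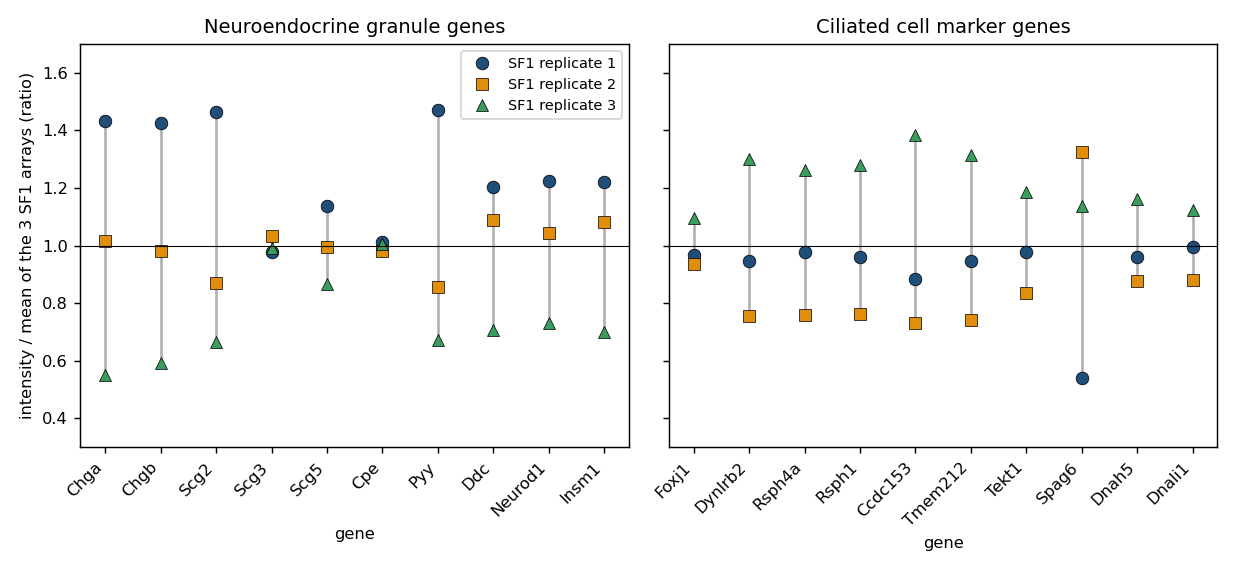
Intensity on each SF1 array divided by the mean of the 3 SF1 arrays, for the 10 neuroendocrine granule genes (left) and 10 ciliated cell markers (right), with 1 symbol per replicate. Replicate 1 is highest and replicate 3 lowest for 8 of the 10 granule genes, all but Scg3 and Cpe, and for 0 of the 10 ciliated cell markers.

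The ciliated cell markers had another order. Of 10 such genes, 8 rose (limma), with sums of 6395 to 10013 units in SF1 and 1361 to 1441 in control, and none of the 10 was highest in SF1 replicate 1 and lowest in SF1 replicate 3. Ccdc153, a gene of motile cilia, read 1388, 1149 and 2168 units in SF1 replicates 1, 2 and 3 and 19.4, 25.8 and 21.5 in control (log2 difference 5.32). Its highest SF1 array was the one in which Chga, Chgb and Pyy read lowest.

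The genes most like Chga and Pyy over the 6 arrays were found by Pearson correlation of log2 values among 266 genes that spanned at least 2 log2 units. With Chga these were Hsbp1l1 (r = 0.9993), Chgb (0.9991), Umod (0.9986), Ddc (0.9973) and Prss35 (0.9969). With Pyy they were Umod (0.9980), Hsbp1l1 (0.9978), Lama1 (0.9975), Tm4sf4 (0.9975) and Mmd2 (0.9964). The 6 points of each correlation share the difference between the groups, which sets most of its size. Umod encodes the secreted glycoprotein uromodulin of the kidney tubule. It read 1455, 1124 and 758 units in SF1 and 39.0, 36.7 and 36.4 in control. Umod had the array order of Chga, but it was picked on these same values, so that order is no separate observation.

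Other genes of hormone granules and of the cells that make them were taken from 7 lists of 131 genes, of which 121 were measured and none is among the 10 genes. Of the 121, 23 rose (19.0%) and 6 fell (4.96%) at a limma adjusted p under 0.05, where 8.37% of all genes rose and 8.11% fell. After median centring, 24 of the 121 rose and 3 fell. Of all 18193 genes, 1523 rose and 1475 fell without that centring, and 1782 rose and 1056 fell with it. The median log2 difference of the 121 was 0.00, against -0.05 over all genes. Without SF1 replicate 1, 14 of the 121 rose and 3 fell, beside 1025 and 908 of all genes. Without control replicate 1, 17 of the 121 rose and 3 fell, beside 1078 and 965 of all genes.

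These counts take each gene at its brightest probe set, and other probe sets of a gene could differ from it. Of 41 pathway genes that had several probe sets and were not called on the brightest, 5 had another that rose (Rab3c, Rab3d, Isl1, St18 and Iapp) and 3 had another that fell (Gnas, Sox4 and Slc18a1). Over all genes of that kind, 4.05% had another probe set that rose and 6.62% one that fell. For the counts of single lists below, the shares over all genes are the same 8.37% risen and 8.11% fallen.

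**Figure D3:**
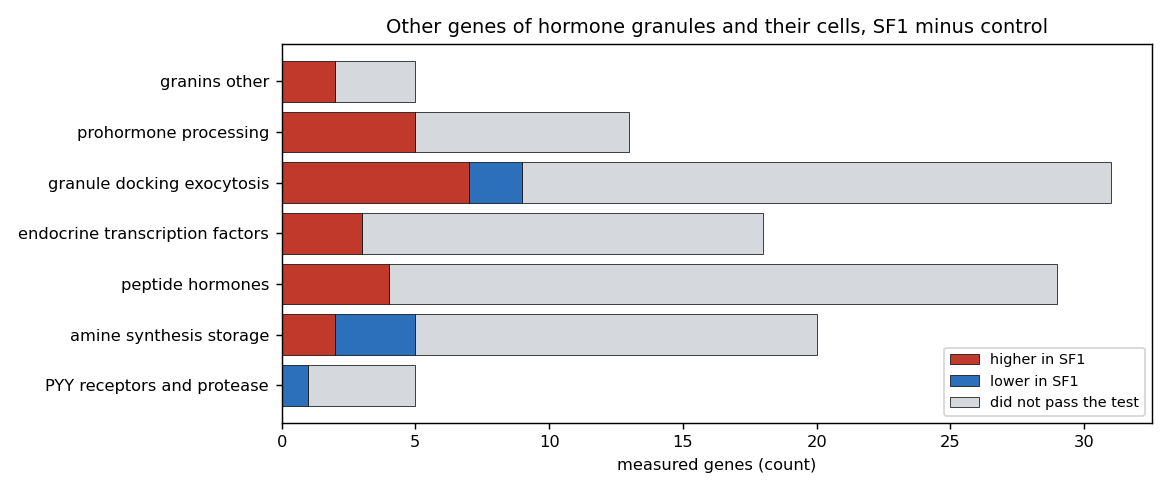
Number of measured genes in each of the 7 lists that were higher in SF1 (red), lower in SF1 (blue) or did not pass the test (grey), by limma at an adjusted p under 0.05. The list of granule docking and exocytosis is the longest and has the most risen genes, 7 of 31 (22.6%), and the PYY receptor and protease list has none. By share, the other granins (2 of 5, 40%) and prohormone processing (5 of 13, 38.5%) stand higher.

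Among the other granins and granule proteins, 2 of 5 rose and 0 fell. Resp18, a protein of the endocrine secretory pathway, read 78.7, 44.6 and 51.3 units in SF1 and 19.8, 23.1 and 22.9 in control (log2 difference 0.94, limma adjusted p = 0.00441). Pcsk1n, which encodes the convertase inhibitor proSAAS, rose by 0.34 (limma adjusted p = 0.0393), a call that ended in 4 of the 6 fits on 5 arrays (up to an adjusted p = 0.116). The count was 1 without SF1 replicate 2, SF1 replicate 3, control replicate 1 or control replicate 2.

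Of 13 prohormone processing genes, 5 rose and 0 fell. Pcsk6, the gene of the convertase PACE4, read 346, 329.8 and 337 units in SF1 and 154, 147 and 173 in control (log2 difference 1.02, limma adjusted p = 0.000108). Cpd, a carboxypeptidase of the Golgi, rose by 0.56 (limma adjusted p = 0.0115), a call lost without SF1 replicate 1, and 3 of its 6 other probe sets also rose. Pcsk5 rose by 0.48 (limma adjusted p = 0.00679), but with the mean of its probe sets the difference was 0.16 and the call was lost.

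The convertase most tied to the granules moved little. Pcsk1, the gene of prohormone convertase 1/3, read 78.7, 85.3 and 80.7 units in SF1 and 63.8, 50.5 and 63.6 in control. Its log2 difference was 0.38 (limma adjusted p = 0.0305), and the call ended in 5 of the 6 fits on 5 arrays (up to an adjusted p = 0.0935). Pam, which amidates the ends of peptides such as PYY, differed by 0.29 and did not pass the test (limma adjusted p = 0.0808), though it did with a pseudocount of 64, among brighter probe sets alone, with another variance model or without SF1 replicate 2 (lowest limma adjusted p = 0.0355). Pcsk2 was not analysed here. The count of risen processing genes was 2 without SF1 replicate 1, and 3 without SF1 replicate 3, control replicate 1 or control replicate 2.

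Of 31 genes of granule docking and exocytosis, 7 rose and 2 fell. Doc2b, a calcium sensor for granule fusion, read 580.4, 416 and 594 units in SF1 and 92.3, 106 and 106 in control (log2 difference 2.20, limma adjusted p = 2.81e-05), and its other probe set also rose (0.73). Rab27b, a small GTPase that brings granules to the membrane, read 481, 327 and 290.4 units in SF1 and 131, 127 and 105 in control (1.45, limma adjusted p = 0.000786). Of its 3 other probe sets 2 rose (1.02 and 0.46) and 1 differed by 0.08, and the mean of all 4 gave 0.76. Rab27b had the array order of Chga, and Doc2b did not.

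Rph3al, which encodes the Rab effector Noc2 of endocrine cells, rose by 1.25 (limma adjusted p = 8.96e-05), while its dimmer probe set differed by -0.04. Syt13 (-0.33, limma adjusted p = 0.0208) and Syt1 (-0.35, limma adjusted p = 0.0342), both synaptotagmins, fell. With 5 arrays, Syt13 missed the threshold in 4 of the 6 fits and Syt1 in 5 (up to an adjusted p = 0.0914), and both missed it after median centring, Syt1 also after quantile normalization. Syp, the gene of the vesicle protein synaptophysin, read 95.0 to 114 units in SF1 and 102 to 116 in control and did not pass the test (-0.07, limma adjusted p = 0.664). Without SF1 replicate 1, SF1 replicate 2 or control replicate 1, none of the 31 fell, and 1 fell without each of the other arrays.

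Of 18 endocrine transcription factor genes, 3 rose and 0 fell. Foxa2, which also marks uterine glands, read 825, 652 and 822 units in SF1 and 449, 455 and 388 in control (log2 difference 0.80, limma adjusted p = 0.00219). Hes1, a Notch target that represses endocrine fate in the gut, rose by 0.61 (limma adjusted p = 0.0441), and Rfx3, a regulator of cilia and islet cells, by 0.40 (limma adjusted p = 0.0458). On 5 arrays, Hes1 and Rfx3 each missed the threshold in 5 of the 6 fits (up to adjusted p = 0.13 and 0.141). Both also missed it with a pseudocount of 1, Hes1 with array weights, and Rfx3 with the mean of its probe sets (0.13).

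Neither Neurog3 nor Rest passed the test. Neurog3, the factor that sets off enteroendocrine and islet cell formation, read 59.7 to 61.5 units in SF1 and 57.0 to 67.1 in control (0.00, limma adjusted p = 0.985). Rest, the repressor of neuronal and granin genes, read 486, 644 and 568 units in SF1 and 657, 673 and 589 in control and did not pass the test (-0.18, limma adjusted p = 0.318). Isl1, a LIM homeodomain factor of islet and enteroendocrine cells, read 449, 293 and 164 units in SF1 and 30.2, 45.1 and 38.9 in control on its dimmer probe set (2.46, limma adjusted p = 0.000813). Its brighter probe set read 229, 412 and 336 units in SF1 and 340.3, 172 and 345 in control and did not pass the test (0.20, limma adjusted p = 0.656). St18, a zinc finger factor, rose on its dimmer probe set, with 164, 121 and 67.1 units in SF1 and 28.8, 32.5 and 25.7 in control (1.50, limma adjusted p = 0.00397), and differed by -0.10 on the brighter one. The dimmer probe sets of both genes had the array order of Chga, and neither gene is in the count of 3. Sox4 went the other way. It differed by -0.15 on its brightest probe set and did not pass the test there (limma adjusted p = 0.4446), while 3 of its 7 other probe sets fell (-0.54, -0.69 and -0.34). The count of risen factors was 1 without SF1 replicate 1, SF1 replicate 3, control replicate 2 or control replicate 3.

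Of 29 other peptide hormone genes, 4 rose and 0 fell. Calcb, a gene of the calcitonin gene-related peptide family, read 86.7, 80.1 and 94.4 units in SF1 and 23.0, 26.0 and 28.1 in control (log2 difference 1.30, limma adjusted p = 4.125e-05). Sst, the gene of somatostatin, read 219, 203 and 167 units in SF1 and 104, 77.1 and 118 in control (0.88, limma adjusted p = 0.00508). Sst had the array order of Pyy and Chga, and Calcb did not.

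Sct, the gene of secretin, rose by 0.55 (limma adjusted p = 0.0175), a call that ended without SF1 replicate 1 or SF1 replicate 2 (up to an adjusted p = 0.0685). Npy, the neuropeptide gene closest to Pyy in family, read 81.7 to 101 units in SF1 and 84.6 to 95.5 in control (-0.02, limma adjusted p = 0.923). Iapp, the gene of islet amyloid polypeptide, read 463, 306 and 239 units in SF1 and 219, 201 and 127 in control on its brightest probe set and did not pass the test there (0.81, limma adjusted p = 0.0634). Of its 3 other probe sets 2 rose, 1 of them with 386, 185 and 132 units in SF1 and 24.9, 24.2 and 14.2 in control (2.64, limma adjusted p = 0.000879), and the other by 0.87 (limma adjusted p = 0.0453). Both had the array order of Pyy. Of the 29 hormone genes, 6 read higher on every SF1 array than on any control array, where 16.2% of all genes did. Of these 6, 5 had the array order of Pyy. Penk (limma adjusted p = 0.2075) and Iapp are among these 5, and neither passed the test on its brightest probe set. In all 7 lists together, 29 of the 121 genes read above control, and 11 of these 29 had that order. It was found in 21.3% of all genes called with a rise and in 15.7% of all genes. Its share among all genes above control was not counted, so no share of the same kind stands beside these counts. The count of risen hormone genes was 2 without SF1 replicate 1 or SF1 replicate 2.

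Of 20 genes of amine synthesis, storage and removal, 2 rose (10%) and 3 fell (15%), where 8.37% of all genes rose and 8.11% fell. Slc6a2, the noradrenaline transporter gene, fell to 596, 859 and 413 units in SF1, against 2112, 2167 and 2165 in control (log2 difference -1.82, limma adjusted p = 0.000812). Of its 3 dimmer probe sets 1 fell as well, and the mean over all 4 gave -0.61. Maob, a monoamine oxidase gene, read 377, 331 and 353 units in SF1 and 743, 804 and 647 in control (-1.01, limma adjusted p = 0.000298).

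Gch1, which supplies the cofactor of amine synthesis, rose by 0.59 (limma adjusted p = 0.0305), and missed the threshold in 4 of the 6 fits on 5 arrays (up to an adjusted p = 0.089). Slc18a2, the gene of the vesicular monoamine transporter, read 36.7, 38.6 and 49.6 units in SF1 and 27.3, 19.3 and 26.0 in control (0.52, limma adjusted p = 0.0192), a call lost without SF1 replicate 3. Th, the enzyme gene that makes the dopamine precursor, read 46.1 to 54.1 units in SF1 and 48.1 to 62.0 in control (-0.10, limma adjusted p = 0.536). Of these 20 genes 1 rose when any array other than control replicate 2 was left out.

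The list for the reception and removal of peptide YY had 5 genes, of which 0 rose and 1 fell. Dpp4, the protease that trims peptide YY, read 343, 274 and 294 units in SF1 and 427, 439 and 436 in control (log2 difference -0.50, limma adjusted p = 0.0092), and 2 of its 3 other probe sets fell as well. The Y receptor genes Npy1r (-0.21), Npy2r (0.29), Npy4r (-0.19) and Npy5r (0.03) did not pass the test (lowest limma adjusted p = 0.119). Npy1r read 73.3 to 75.4 units in SF1 and 81.3 to 93.5 in control, Npy2r 62.4 to 87.9 in SF1 and 52.2 to 72.3 in control, and Npy5r 28.4 to 32.2 in SF1 and 29.6 to 29.7 in control. Npy4r read 154 to 170 units in SF1 and 157, 107 and 379.6 in control replicates 1, 2 and 3, so 1 control array set its spread.

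**Figure D4:**
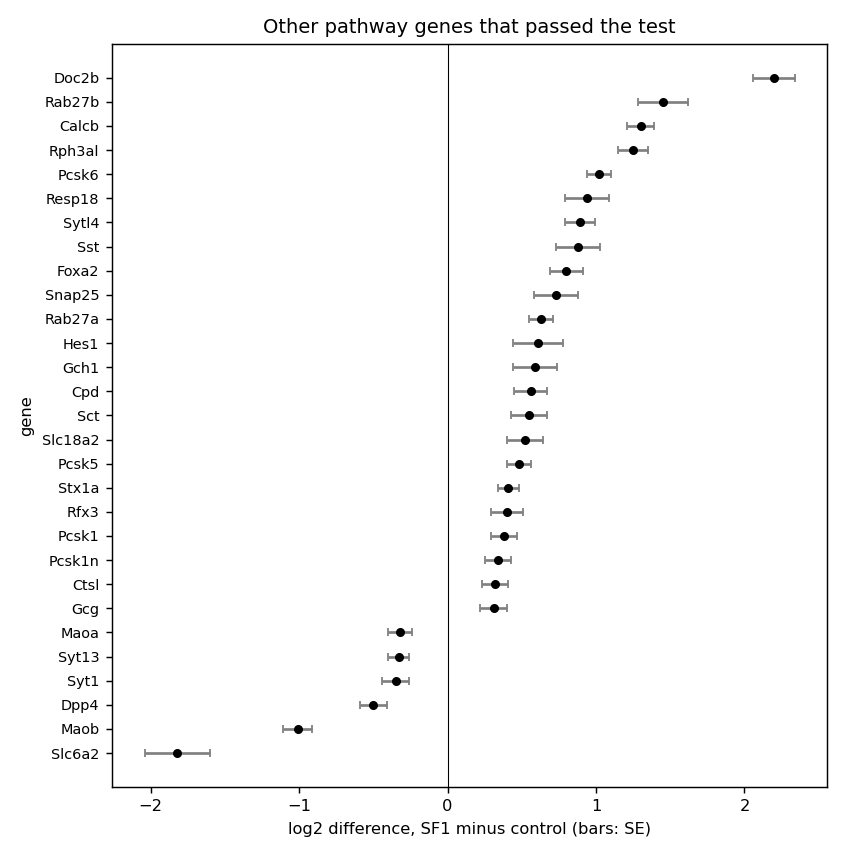
Log2 difference, SF1 minus control, with its standard error for the 29 other pathway genes that passed the test (limma). Doc2b (2.20) stands highest and Slc6a2 (-1.82) lowest.

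Marker lists of cells that also make granules were read beside these genes, with the same shares over all genes (8.37% risen and 8.11% fallen). Of 14 neuron markers 0 rose and 2 fell, with a summed intensity of 1612 to 1762 units in SF1 and 1820 to 1974 in control. Gap43, a protein of growing axons, fell most (log2 difference -0.63, limma adjusted p = 0.00335). The second was Sncg, with 329, 258 and 211 units in SF1 and 393, 499.7 and 356 in control (-0.62, limma adjusted p = 0.0421). The remaining 12 neuron markers did not pass the test. The count of fallen neuron markers was 1 without SF1 replicate 2, SF1 replicate 3, control replicate 1 or control replicate 2. Of 7 Schwann cell and glial markers 1, Mbp, rose (0.51, limma adjusted p = 0.0186), with sums of 1879 to 2163 in SF1 and 1654 to 1724 in control, and its call was lost without SF1 replicate 1 or SF1 replicate 2 and with the mean of its probe sets (0.08).

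Chromaffin markers gave 0 risen and 1 fallen of 6, the fallen one being Slc6a2, and the other 5 did not pass the test. The sums were 1250 to 1770 units in SF1 and 2934 to 3207 in control. Slc6a2 alone read 413 to 859 units in SF1 and 2112 to 2167 in control, so it made up most of the control sum. Pituitary gonadotrope markers gave 0 and 0 of 5, with sums of 450.2 to 523 in SF1 and 483 to 510.3 in control. Among these genes, none read 1 unit or lower on any array, and absence cannot be told from dim signal here.

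Pancreatic islet markers gave 2 risen and 0 fallen of 9 on their brightest probe sets, Sst and Gcg, while Iapp rose on 2 dimmer ones, with sums of 949 to 1215 units in SF1 and 797 to 830.1 in control. Gut epithelium markers gave 2 risen and 2 fallen of 11, with sums of 1483 to 1528 in SF1 and 1533 to 1696 in control. Krt20, a keratin of surface gut cells, rose by 0.90 (limma adjusted p = 0.00294), and Phgr1 fell (-0.33, limma adjusted p = 0.0343), a call that ended in 5 of the 6 fits on 5 arrays (up to an adjusted p = 0.115) and after median centring. Either list gave 1 risen gene without SF1 replicate 1, SF1 replicate 2 or control replicate 1, as did the islet list without control replicate 3. None of the gut markers fell without SF1 replicate 1, SF1 replicate 3, control replicate 1 or control replicate 3.

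Adrenal cortex markers gave 2 risen and 0 fallen of 7, with sums of 1399 to 1942 units in SF1 and 784 to 902 in control. They were Star, a known SF1 target (log2 difference 2.70, limma adjusted p = 4.84e-06), and Cyp11a1, whose call was lost without SF1 replicate 1, SF1 replicate 2 or control replicate 1. Uterine epithelium markers gave 3 risen and 1 fallen of 6, with Krt7 (1.80, limma adjusted p = 1.98e-05) highest and Krt19 (-0.36, limma adjusted p = 0.0355) lower. Krt19 missed the threshold in 4 of the 6 fits on 5 arrays (up to an adjusted p = 0.114), after median centring and with a pseudocount of 1. The epithelial sums were 17155 to 19070 units in SF1 and 14298 to 15422 in control. The array order of Chga was found in 3 of the 7 adrenal cortex markers, Star among them. It was also found in 2 of the 6 epithelial markers, Krt7 among them, and in 15.7% of all genes. The part of any of these cell types in the higher granule genes was not tested.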

How the data were processed

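The deposited file holds probe set intensities on a linear scale; the software and normalization that the authors used are not given in the sources used here. Per the labels' protocols, each of the 6 arrays (3 per group) held RNA pooled from 2 uteri of 1 genotype. The labels do not say whether pools were processed together, so p-values measure the spread between these pools. Of 45101 probe sets, 64 Affymetrix controls were set aside. Probe sets were named from the platform annotation (34945 with 1 symbol, 932 with several, 9160 with none), and all 10 symbols were current in GRCm38.p6. A gene was represented by its probe set with 1 symbol and the highest mean log2 value. Values were taken as log2(intensity + 16) and fitted with limma 3.58.1 in R 4.3.3 (lmFit and eBayes), with Benjamini-Hochberg adjustment over all 45037 probe sets and a threshold of 0.05. All adjusted p-values are from that fit and, for fits without an array, from the same fit on 5 arrays.

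The members and lists were chosen with earlier results of these data known. From each list the text names up to 3 called genes with the largest rise and 2 with the largest fall whose groups did not overlap (for marker lists 1 and 1), certain genes always, and the 5 genes most like Chga and Pyy (clone and predicted names passed over). Where a gene outside this rule is given, it was chosen after its values were seen. The fit was tested on simulated data. Alternatives were other pseudocounts, quantile normalization, median centring, testing only the brighter probe sets, blocking on the replicate number, another variance model, array weights, averaging the probe sets of a gene, and each array left out. Same-numbered arrays did not deviate together (correlations of -0.0633, -0.101 and -0.184), so the numbers were not taken as pairs. The number of arrays limits the precision.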

Additional observations from a re-analysis of the deposited data

How the results depend on the processing

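The count of called genes (2998) lay between 1933 (without SF1 replicate 1) and 2365 with 1 array left out. Its share of rises, 50.8%, was 62.8% after median centring. The count of other pathway genes called (29) lay between 17 (without SF1 replicate 1) and 23 with 1 array left out. Of the 10 granule genes, 9 were called, between 8 and 9 with 1 array left out, and 5 with the filter to brighter probe sets, which left only 5 of them to test. With the replicate number as a block, 2071 genes, 22 other pathway genes and 8 granule genes were called; the arrays share only a number, so this block follows no known pairing. The other alternatives moved none of these counts by over 1.5 times, and no difference of a named gene that was called changed sign. The count of granule genes in the common array order was 8 of 9 under each scaling run, and that count was added after the values were seen. A pseudocount cannot change the order of the arrays for a probe set, so the pseudocount runs do not bear on that count. With a pseudocount of 64 the differences of Resp18 (0.50), Calcb (0.75), Pcsk1 (0.24), Slc18a2 (0.26) and Gap43 (-0.38) shrank by over 1.5 times and stayed called. With the mean of probe sets, those of Cpd (0.32), Rph3al (0.60) and Syt1 (-0.23) shrank as much and that of Insm1 (1.29) grew as much, all still called. Dim control readings limit the fold ratios.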
